A study of Mus musculus with 24 samples.

Results

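The annexins, S100 proteins and Ahnak scaffolds described here are 10 genes: Anxa1, Anxa2, Anxa3, Anxa5, S100a4, S100a6, S100a10, S100a11, Ahnak and Ahnak2. They were found by symbol among the 53379 genes of the count table, and each was matched by 1 gene identifier. All 10 passed the filter on low counts that left 37598 genes for testing. The genes were selected on their level in KA against SH in each fraction, so the values of that comparison describe the choice and carry no test. The KA libraries came from mice given kainic acid, a glutamate receptor agonist that causes status epilepticus, by an injection deep in the cortex, and the SH libraries from mice given saline by the same procedure. All mice were adult male C57/BL6N, acquired at 8 weeks of age and kept for 4 weeks before use. Right hippocampi were taken at 24 hours and pooled from 4 mice in replicate 1 and from 2 mice in replicates 2 and 3, which gave 3 pools from 8 mice per treatment. KA mice without convulsive seizures had been excluded. Flow cytometry with an antibody to the neuronal nuclear protein NeuN then gave NeuN+ nuclei, called neurons, and NeuN- nuclei, called glia, and mRNA of each fraction was sequenced as 1 library, 12 in all.

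Annexins are proteins that bind phospholipid membranes when calcium rises, and S100 proteins are small calcium binding proteins that pair with annexins and other targets. S100a10 is the exception that does not need calcium, and it holds annexin A2 in a complex under the plasma membrane to which the giant scaffold protein Ahnak binds. The complex takes part in membrane repair together with dysferlin, carries ion channels and a serotonin receptor to the cell surface, and binds tissue plasminogen activator and plasminogen outside the cell.

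Library totals ranged from 7769400 to 40364768 counts, and 1 count was worth 0.0299 to 0.0869 CPM, the unit of level used here, in which each count is scaled to 1 common library size by the TMM-scaled total of its library. SH glia replicate 1 and KA glia replicate 2 were amplified from 0.05 ng RNA with 15 PCR cycles, and the other libraries from 1 ng with 10 cycles. Summed levels of 12 neuron markers were 5620 to 8820 CPM in the 6 neuron libraries and 507 to 1860 CPM in the 6 glia libraries, and those of 8 oligodendrocyte markers were 140 to 1270 and 7470 to 29600 CPM. The NeuN- gate takes every nucleus without NeuN, so it can hold endothelial, pericyte, fibroblast and blood cells beside glia. In such bulk samples, fewer nuclei of a type and less RNA per nucleus cannot be told apart.

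Ahnak lies on chromosome 19 (8989284 to 9076914, plus strand) and Ahnak2 on chromosome 12 (112772194 to 112802657, minus strand), as annotated by GENCODE M21 on GRCm38, the assembly also called mm10. Anxa2 lies on chromosome 9 (69453620 to 69491795, plus strand). S100a10 (93555080 to 93564643) and S100a11 (93520488 to 93526287) are on the plus strand of chromosome 3, as are S100a4 (90603771 to 90606045) and S100a6 (90612882 to 90624181). Anxa5 is on chromosome 3 (36448923 to 36475894, minus strand), Anxa3 on chromosome 5 (96793339 to 96845966, plus strand) and Anxa1 on chromosome 19 (20373428 to 20390944, minus strand). The stretches before the transcription start are shown for the 3 genes that were called in KA glia and for S100a11, which holds the same AP-1 letters as Anxa2. They are taken from RefSeq on GRCm38.p6, run 5′ to 3′ on the strand of the gene, and end at the RefSeq start or, for Anxa2 and S100a11, before the first exon base in GENCODE. Capitals mark 5 motifs searched on both strands: AP-1 (TGANTCA), CRE (TGACGTCA), TEAD (GGAATG), GC box (GGGCGG) and TATA box (TATAAA). The Anxa2 stretch is chr9:69453433-69453619 (plus strand), S100a11 is chr3:93520246-93520487 (plus strand), Ahnak is chr19:8989034-8989283 (plus strand) and Ahnak2 is chr12:112795743-112795992 (minus strand).
Anxa2: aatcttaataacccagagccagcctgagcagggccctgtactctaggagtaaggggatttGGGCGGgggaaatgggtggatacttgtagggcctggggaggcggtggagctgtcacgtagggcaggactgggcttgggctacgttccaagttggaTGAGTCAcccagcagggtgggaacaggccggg
S100a11: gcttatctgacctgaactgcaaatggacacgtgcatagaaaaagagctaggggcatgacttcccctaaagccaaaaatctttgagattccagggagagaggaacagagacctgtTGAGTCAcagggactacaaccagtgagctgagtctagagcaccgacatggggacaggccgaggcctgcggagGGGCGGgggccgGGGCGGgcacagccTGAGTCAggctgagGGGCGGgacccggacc
Ahnak: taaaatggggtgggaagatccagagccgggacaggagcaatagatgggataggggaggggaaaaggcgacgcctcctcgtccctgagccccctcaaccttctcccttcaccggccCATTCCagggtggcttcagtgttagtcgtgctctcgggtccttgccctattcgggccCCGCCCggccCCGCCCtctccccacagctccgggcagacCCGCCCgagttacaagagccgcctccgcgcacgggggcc
Ahnak2: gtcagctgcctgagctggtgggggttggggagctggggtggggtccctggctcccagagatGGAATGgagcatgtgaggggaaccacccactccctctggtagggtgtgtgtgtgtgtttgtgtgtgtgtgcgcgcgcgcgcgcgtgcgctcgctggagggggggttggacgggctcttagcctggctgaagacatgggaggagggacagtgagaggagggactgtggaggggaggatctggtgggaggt
Matches nearer to the RefSeq start than the stretch shown were counted but are not shown. The RefSeq start of Ahnak2 falls within the first intron of the longest GENCODE transcript of that gene. Table entries were found for 8 of the 10 genes, all but Anxa3 and S100a10. The AP-1 letters stood 95 bases before the start of Anxa2 and at 136 and 38 bases before that of S100a11, so 2 of 8 entries held them in the 250 bases before the start, against 6.75% of 32851 entries for all genes. The TEAD letters were in the windows of Ahnak, Ahnak2 and Anxa1 (12.6% of all entries), the GC box in those of Ahnak, Anxa2 and S100a11 (32.7%) and the TATA box in those of Anxa1, Anxa2 and S100a4 (12.4%). The CRE letters, present in 1.55% of entries, were in none of the 8 windows. These matches describe letters in a window and were not tested against any measured level.

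**Figure D1:**
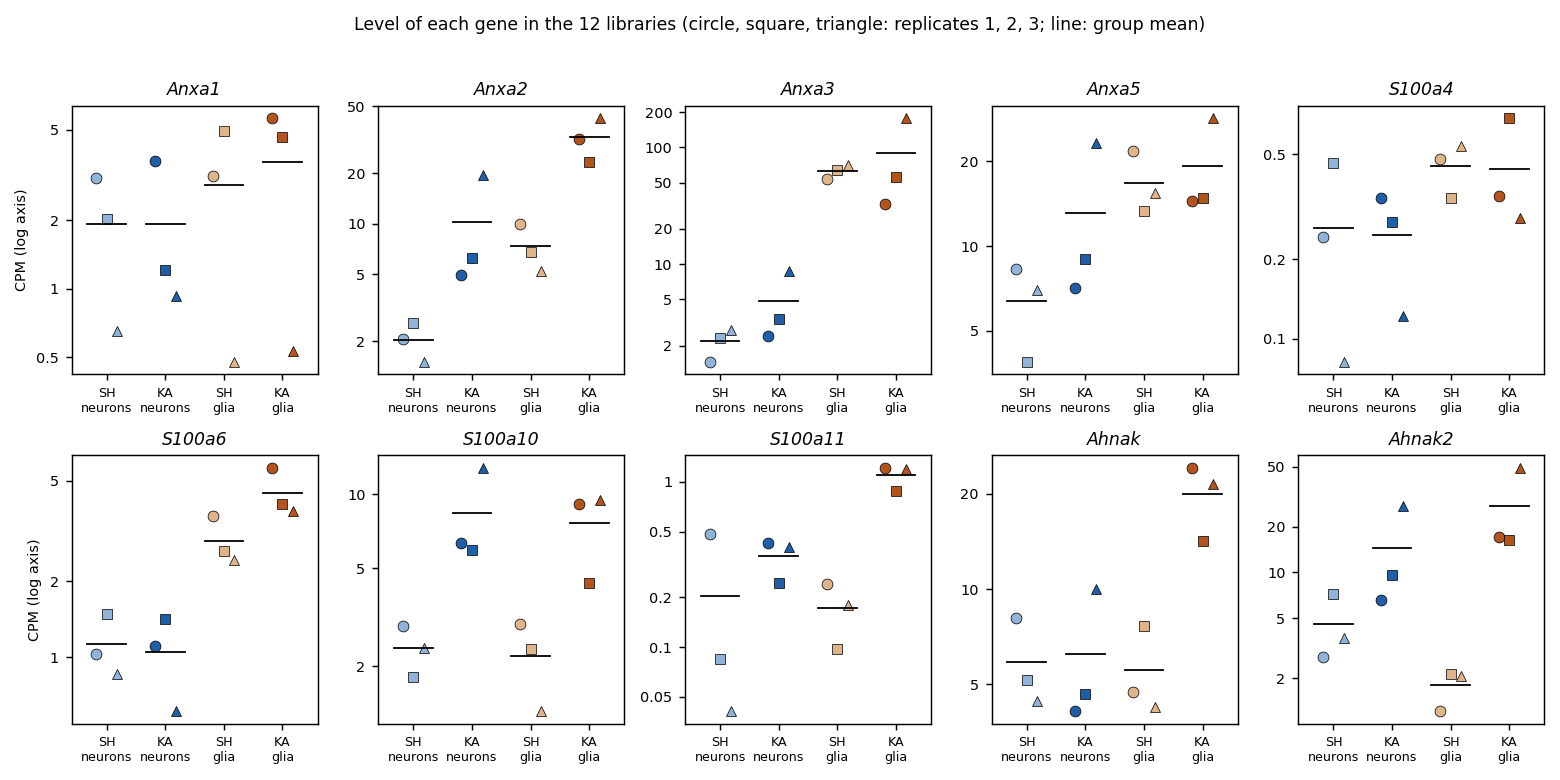
Level of each gene in the 12 libraries, in CPM on a log axis, for SH neurons, KA neurons, SH glia and KA glia. Circles, squares and triangles are replicates 1, 2 and 3 and the line is the group mean of 3 libraries. Anxa2 and S100a10 show every KA library above every SH library in both fractions. Ahnak, Ahnak2, S100a6 and S100a11 do so in glia only.

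The first comparison asked how the genes differed between KA and SH in glia. Mean levels in KA glia were 15.2-fold those in SH glia for Ahnak2, 6.35-fold for S100a11, 4.47-fold for Anxa2, 3.6-fold for Ahnak and 3.46-fold for S100a10. In neurons the same folds were 3.20, 1.76, 4.98, 1.06 and 3.54. Called means FDR below 0.25, the threshold of the study, in the edgeR quasi-likelihood test over all genes. 3 of the 10 genes were called higher (Anxa2, Ahnak and Ahnak2), where 0.442% of all genes were called higher and 0.306% lower. All 3 KA libraries lay above all 3 SH libraries for 6 of the 10 genes, against 3.61% of all genes. Since the genes were chosen by this contrast, the shares of all genes are given for scale and nothing is read from the difference. The calls of the 10 genes in KA against SH, and whether they held in other fits, likewise describe the choice and carry no test. The median logFC (log2 fold change) of the 10 genes was 1.22 in glia, and the median of all genes tested was 0.14.

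Ahnak2, a large scaffold protein related to Ahnak, had the largest difference of the 10. Its level was 1.21, 2.14 and 2.09 CPM in SH glia replicates 1, 2 and 3 and 17.2, 16.3 and 49.2 CPM in KA glia. Every KA glia library was thus above every SH one, and KA replicate 3 stood apart on the high side. The logFC was 3.91 ± 0.634 (SE, n = 3 per group), and the call held in 6 of 6 fits that left out 1 glia library. Without both low-input libraries the logFC was 3.91, again called. In SH, Ahnak2 was the gene of the 10 with the lowest level per length in glia, 0.128 ± 0.0372 CPM per kb of exon (SD, n = 3), and in KA it reached 1.95 ± 1.32 CPM per kb. Repeats within its exons, described below, may lower both values.

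Ahnak, the scaffold that binds the annexin A2 and S100a10 complex and a calcium channel subunit, had 4.74, 7.64 and 4.24 CPM in SH glia and 24.2, 14.2 and 21.5 CPM in KA glia. The groups did not overlap, and the lowest KA library was replicate 2, of low input. The logFC was 1.85 ± 0.454. The call held in 1 of 6 fits without 1 glia library, the one without SH glia replicate 2, with logFC from 1.68 to 2.14. Without both low-input libraries the logFC was 1.85 and was not called. Repeats may affect the counts of both scaffolds: 19.8% of the 50-base stretches in Ahnak exons and 58.2% in Ahnak2 exons occurred more than 1 time within the gene itself. Reads wholly inside a repeat have no unique place, and only uniquely mapped reads were counted. The reads of the study were longer than 50 bases, so these shares may overstate the loss, which was not measured.

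Anxa2, the annexin of the complex, had 9.97, 6.77 and 5.26 CPM in SH glia and 32.2, 23.5 and 42.7 CPM in KA glia, with no overlap. Its logFC was 2.17 ± 0.493, with group means of 7.33 ± 2.40 and 32.8 ± 9.61 CPM (SD, n = 3). The call was lost without KA glia replicate 3 or without SH glia replicate 3, and the logFC without 1 glia library ranged from 1.92 to 2.55. Without both low-input libraries the logFC was 2.54 and was not called, in a fit that called 40 genes higher over all genes.

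S100a10, the partner of annexin A2, had 2.97, 2.34 and 1.31 CPM in SH glia and 9.13, 4.36 and 9.47 CPM in KA glia. The groups did not overlap, and the logFC was 1.80 ± 0.535, below the threshold for a call. S100a11, a partner of annexin A1, had 0.241, 0.0974 and 0.179 CPM in SH glia and 1.22, 0.879 and 1.19 CPM in KA glia, again without overlap and not called (logFC 2.65 ± 1.17). These S100a11 levels rest on 2 to 6 counts per SH glia library and 14 to 29 per KA glia library. In addition, 57.1% of the 50-base stretches in its exons occurred elsewhere in the genome, which makes its level uncertain. S100a6, a protein known from astrocytes and fibroblasts, had 3.62, 2.63 and 2.42 CPM in SH glia and 5.65, 4.05 and 3.79 CPM in KA glia, a separation with a small size (logFC 0.64 ± 0.598, not called).

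The remaining 4 genes overlapped between KA and SH glia. Anxa3, an annexin found in microglia, had 53.1, 63.9 and 70.8 CPM in SH glia and 32.9, 55.9 and 179 CPM in KA glia. KA replicate 3 alone lay above SH, and the logFC of 0.51 ± 0.537 turned to -0.50 without it. Anxa5, which binds exposed phosphatidylserine, had 21.7, 13.3 and 15.4 CPM in SH glia and 14.5, 14.8 and 28.5 CPM in KA glia (logFC 0.20 ± 0.463). Anxa1, a mediator that acts on formyl peptide receptors, had 3.14, 4.97 and 0.478 CPM in SH glia and 5.65, 4.67 and 0.535 CPM in KA glia (logFC 0.34 ± 0.929). Replicate 3 was the lowest for Anxa1 in all 4 groups. S100a4, known from fibroblasts and white matter astrocytes, had 0.482, 0.341 and 0.538 CPM in SH glia and 0.348, 0.688 and 0.288 CPM in KA glia (logFC -0.03 ± 1.13), on 4 to 18 counts per library. An overlapping gene on the same strand, Gm42674, covers 51.7% of the exon bases of S100a4, where reads could not be assigned to either gene.

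In neurons, Anxa2 and S100a10 were the genes of the 10 with every KA library above every SH library, 2 of 10 against 5.27% of all genes. Anxa2 was called higher, 1 of 10 genes, where 0.279% of all genes were called higher and 0.0612% lower. Again these shares are given for scale, since this contrast also served to choose the genes. Anxa2 had 2.06, 2.57 and 1.51 CPM in SH neurons and 4.95, 6.25 and 19.4 CPM in KA neurons (logFC 2.32 ± 0.505). KA replicate 3 was by far the highest, and without it the logFC was 1.45 and was not called. The call was also lost without any 1 of the 3 SH neuron libraries. S100a10 had 2.91, 1.81 and 2.37 CPM in SH neurons and 6.32, 5.93 and 12.8 CPM in KA neurons, a logFC of 1.82 ± 0.533 that was close to its value in glia.

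The levels of both scaffolds in neurons are given next, and the genes were not tested against each other. Ahnak2 had 2.78, 7.25 and 3.67 CPM in SH neurons and 6.58, 9.61 and 27.6 CPM in KA neurons, which overlapped (logFC 1.68 ± 0.577, not called). Without KA neurons replicate 3, its highest library, the logFC was 0.82. Ahnak had 8.11, 5.14 and 4.41 CPM in SH neurons and 4.10, 4.65 and 10.0 CPM in KA neurons, with a logFC of 0.10 ± 0.443. The logFC in neurons minus that in glia was -1.75 ± 0.629 for Ahnak and -2.23 ± 0.812 for Ahnak2, and 0.15 ± 0.669 for Anxa2 and 0.02 ± 0.742 for S100a10. These differences come from the contrasts that chose the genes, so no call of the 10 is read from them. Over all genes tested, 0 had an FDR below 0.25 for this difference in the edgeR test (smallest FDR 0.444).

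Of the other annexins, Anxa3 had 1.45, 2.32 and 2.73 CPM in SH neurons and 2.39, 3.40 and 8.71 CPM in KA neurons (logFC 1.16 ± 0.571). Anxa5 had 8.29, 3.88 and 6.98 CPM in SH neurons and 7.09, 8.99 and 23.3 CPM in KA neurons (logFC 1.05 ± 0.471). Both overlapped, and in both KA replicate 3 was the highest library; without it the logFC was 0.42 for Anxa3 and 0.34 for Anxa5. Anxa1 had 3.09, 2.02 and 0.653 CPM in SH neurons and 3.67, 1.21 and 0.932 CPM in KA neurons, with means of 1.92 and 1.94 CPM. S100a6 had 1.03, 1.48 and 0.857 CPM in SH neurons and 1.11, 1.42 and 0.608 CPM in KA neurons. S100a11 had 0.484, 0.0843 and 0.0408 CPM in SH neurons and 0.427, 0.243 and 0.405 CPM in KA neurons. S100a4 had 0.242, 0.464 and 0.0816 CPM in SH neurons and 0.342, 0.278 and 0.122 CPM in KA neurons. These 4 genes showed no separation, and S100a11 and S100a4 rest on 1 to 11 counts per neuron library. The median logFC of the 10 genes was 0.94 in neurons, where that of all genes was 0.000475.

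**Figure D2:**
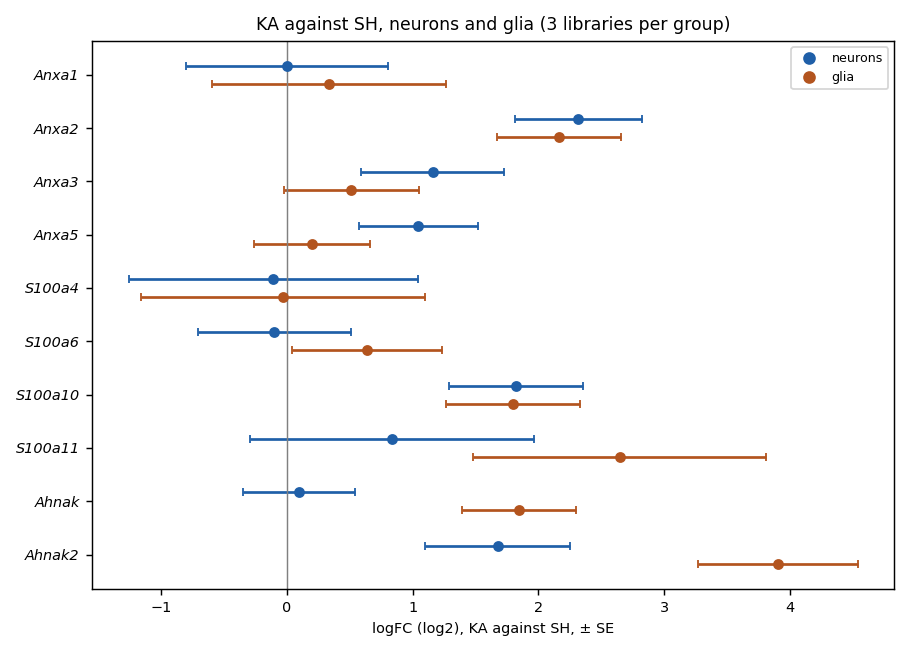
logFC of KA against SH for the 10 genes in neurons and in glia (log2 axis), with points for the fitted value and bars for the SE, 3 libraries per group. Anxa2 and S100a10 lie near 2 in both fractions, while Ahnak and Ahnak2 lie further right in glia than in neurons; the genes were selected on these values.

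Same-numbered libraries deviated together, so a second fit of KA against SH took that number as a block. With the block, 3 of the 10 genes were called higher in neurons (Anxa2 logFC 2.07, S100a10 1.76, Ahnak2 1.51). In glia 5 were called, Anxa2 (2.17), S100a10 (1.79), S100a11 (2.69), Ahnak (1.86) and Ahnak2 (3.78). Of 37598 genes that fit called 730 higher in neurons and 1305 in glia, where the fit without the block called 105 and 166. This contrast chose the 10 genes, so their added calls describe the choice and are no further support.

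Markers of other cell types were read beside these values. The summed level of 10 astrocyte markers was 2170 to 2980 CPM in SH glia and 1320 to 2390 CPM in KA glia, and that of 10 microglia markers 1100 to 2560 and 851 to 1820 CPM. Oligodendrocyte markers summed to 14200 to 29600 CPM in SH glia and 7470 to 14100 CPM in KA glia. For 8 blood leukocyte markers the sums were 92.9 to 105 and 106 to 150 CPM, for 7 endothelial markers 14.4 to 47.9 and 20.6 to 65.0 CPM, for 5 pericyte markers 61.5 to 121 and 30.5 to 74.8 CPM, and for 6 fibroblast markers 74.7 to 126 and 49.2 to 98.7 CPM. For 5 markers of oligodendrocyte precursors they were 1350 to 2440 and 560 to 859 CPM, and for 6 choroid plexus and ependyma markers 21.3 to 176 and 19.0 to 37.0 CPM. The leukocyte sum was higher in every KA glia library than in every SH one only narrowly, 106 against 105 CPM at the nearest. Of the 8 leukocyte genes taken alone, 0 separated in this way. The astrocyte sum joins genes that went both ways. Of its 10 genes, 2 (Gfap and Aqp4) had every KA glia library above every SH one, and 5 had every one below. Mean Gfap was 143 CPM in SH glia and 549 CPM in KA glia. Among the 6 fibroblast genes, 1 (Col3a1) lay above in this way and 0 below. The oligodendrocyte and precursor sums were lower in every KA glia library, narrowly so for oligodendrocytes (14100 against 14200 CPM). In each glia library at most 1 gene of a list was at 0, a choroid plexus gene in replicate 3 of SH and of KA. In neurons, the astrocyte sum was 248 to 848 CPM in SH and 302 to 836 CPM in KA, and the microglia sum 53.2 to 106 and 47.1 to 113 CPM. Replicate 3 had the highest sums of both lists in SH and in KA neurons, 848 and 836 CPM for astrocyte and 106 and 113 CPM for microglia markers. Single astrocyte markers differed from their sum: 5 of the 10 had a positive logFC in neurons. Mean Gfap was 28.8 CPM in SH and 113 CPM in KA neurons, and mean Sox9 10.7 and 32.8 CPM. The libraries of both genes overlapped. Anxa2 was lowest in replicate 3 among SH neurons and highest in replicate 3 among KA neurons. The same held in glia, with 5.26 CPM in SH replicate 3 and 42.7 CPM in KA replicate 3. The part of other cells in the differences was not tested.

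The second comparison asked in which fraction the genes were expressed. It was not used to choose them, but it reads the same libraries, so a gene chosen for high KA glia values is also more likely to be called higher in KA glia. A shift between SH and KA in this comparison is the difference of KA against SH between the fractions. Such shifts come from the contrasts that chose the genes and carry no test. In SH, 2 of the 10 genes were called higher in glia at FDR below 0.05, Anxa3 and Anxa2, where 4.67% of all genes were called higher in glia and 6.05% higher in neurons. In KA these were joined by S100a6 and Ahnak, 4 of 10, where 3.98% of all genes were called higher in glia and 5.88% higher in neurons.

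Anxa3, of the 10 genes, had the lowest share in neurons. Its mean level in neurons was 3.46% of that in glia in SH and 5.41% in KA, and the libraries of the fractions did not overlap. The logFC of neurons against glia was -4.84 ± 0.639 in SH (FDR = 0.000183) and -4.19 ± 0.615 in KA (FDR = 0.000597), and it was called in 6 of 6 fits without 1 library in each treatment. Median shares were 3.67% in SH and 4.29% in KA for 9 microglia markers, 2.70% and 3.64% for 8 oligodendrocyte markers, and 4.71% and 6.47% for 5 markers of oligodendrocyte precursors.

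Anxa2 was lower in neurons in SH (logFC -1.83 ± 0.50, FDR = 0.024) and in KA (logFC -1.68 ± 0.484, FDR = 0.0348). Its level in neurons was 27.9% of that in glia in SH and 31.1% in KA. These shares were above the median share of 10 astrocyte markers, 13.1% in SH and 19.1% in KA, which ranged from 8.79 to 102% in SH and 10.1 to 120% in KA. Median shares in SH and KA were 43.3% and 43.1% for fibroblast, 21.7% and 29.7% for pericyte, and 14.3% and 11.5% for leukocyte markers. For endothelial markers the median was 44.9% in KA. These rest on 2 to 5 genes with at least 10 CPM in glia. The cells behind the Anxa2 level in neurons were not tested. The SH call was lost without SH neurons replicate 1 or 3, and the KA call without KA glia replicate 1 or 3 or KA neurons replicate 1 or 2. S100a6 was lower in neurons in KA (logFC -2.09 ± 0.624, FDR = 0.0419), a call that held in 1 of 6 fits without 1 library, the one without KA glia replicate 3. In SH the libraries of S100a6 did not overlap either, with a logFC of -1.36 ± 0.612 that did not pass (FDR = 0.218).

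Ahnak had about the same level in both fractions in SH, 5.89 ± 1.96 CPM in neurons and 5.54 ± 1.84 CPM in glia (logFC 0.08 ± 0.444, FDR = 0.973). In KA it was lower in neurons, 6.27 ± 3.29 against 19.9 ± 5.14 CPM (logFC -1.66 ± 0.451, FDR = 0.0243). That call was lost without KA glia replicate 1 or without KA neurons replicate 1 or 2. Ahnak2 lay on the neuron side in SH, with every neuron library above every glia library (logFC 1.32 ± 0.587, FDR = 0.211), and on the glia side in KA (logFC -0.91 ± 0.561, FDR = 0.49). With the pool as a block, since neurons and glia of a pool came from the same mice, Ahnak2 was called higher in neurons in SH (logFC 1.26, FDR = 0.00698) and lower in KA (logFC -0.98, FDR = 0.0192). The shifts of Ahnak and Ahnak2 between SH and KA reflect the choice of the genes and carry no test. Anxa5 was called lower in neurons in SH with that block (logFC -1.43, FDR = 0.000911), and without it had a logFC of -1.39 ± 0.474 (FDR = 0.0757) with no overlap of the fractions.

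S100a10 did not separate by fraction. Its mean level in neurons was 107% of that in glia in SH (logFC 0.11 ± 0.526, FDR = 0.971) and 109% in KA (logFC 0.13 ± 0.514, FDR = 0.935), and the sign of both values flipped with DESeq2 size factors (-0.03 in SH and -0.03 in KA). Per kb of exon, the proportion of S100a10 to Anxa2 means differed between the fractions, which was not tested: S100a10 had 1.95 ± 0.451 CPM and Anxa2 0.549 ± 0.142 CPM in SH neurons, and 1.82 ± 0.691 and 1.97 ± 0.645 CPM in SH glia (SD, n = 3). In KA the levels per kb were 6.89 ± 3.18 and 2.73 ± 2.14 CPM in neurons and 6.31 ± 2.36 and 8.78 ± 2.58 CPM in glia. Anxa1, S100a4 and S100a11 were not called in either treatment, with logFC of -0.57 ± 0.935, -0.78 ± 1.14 and 0.20 ± 1.16 in SH and -0.91 ± 0.941, -0.85 ± 1.15 and -1.61 ± 1.11 in KA.

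**Figure D3:**
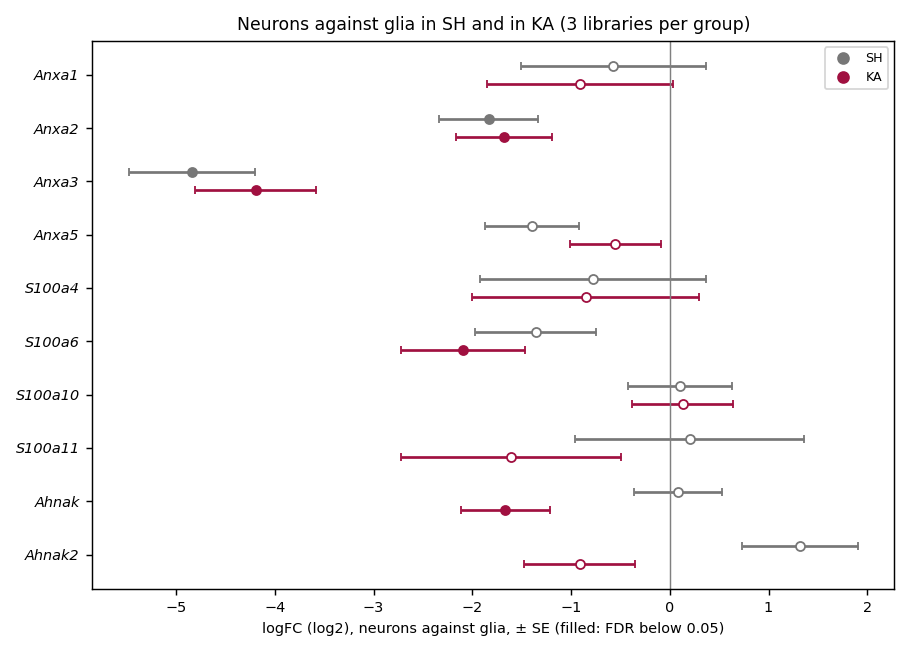
logFC of neurons against glia for the 10 genes in SH and in KA (log2 axis), with bars for the SE and filled points for FDR below 0.05, 3 libraries per group. Anxa3 lies furthest to the left in both treatments, and Ahnak is filled in KA but not in SH, a shift that carries no test.

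**Figure D4:**
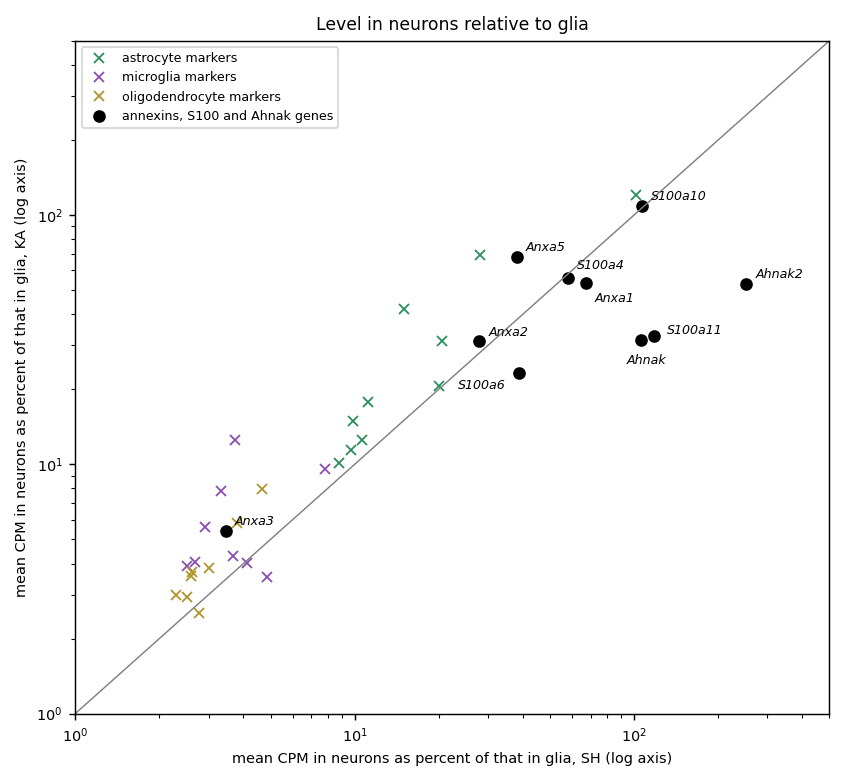
Mean CPM in neurons as a percent of that in glia, SH on the horizontal and KA on the vertical axis (both log), for the 10 genes and for astrocyte, microglia and oligodendrocyte markers with at least 10 CPM in glia; the line marks equal percents. Anxa3 lies among the microglia and oligodendrocyte markers, and Ahnak, Ahnak2 and S100a11 lie below the line, from 106, 252 and 118% in SH to 31.4, 53.0 and 32.7% in KA.

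Per kb of exon, the order of mean levels in SH glia was Anxa3 (17.2 CPM), Anxa5 (9.45), S100a6 (2.11), Anxa2 (1.97), S100a10 (1.82), Anxa1 (0.982), S100a4 (0.777), S100a11 (0.338), Ahnak (0.278) and Ahnak2 (0.128). The means of S100a6, Anxa2 and S100a10 differed by less than their SD of 0.468, 0.645 and 0.691 CPM. Levels per kb of S100a4, S100a11, Ahnak and Ahnak2 may be too low, since shared or repeated stretches of their exons count in the length. The order was not adjusted for this. In KA glia, Anxa3 (24.5 ± 21.6) and Anxa5 (10.8 ± 4.50) were followed by Anxa2 and S100a10, and the libraries of Anxa3 and Anxa5 overlapped. In SH neurons, Anxa5 (3.59 ± 1.28 CPM per kb) and S100a10 stood first, and in KA neurons Anxa5 (7.39 ± 4.99) and S100a10 again, and the libraries of the pair overlapped in both groups.

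The rest of both families and genes known to work with them were tested gene by gene, and the calls were counted by list. Of 8 other annexins and 12 other S100 genes, 16 passed the filter on low counts and S100a5, S100a8, S100a14 and S100z did not. In the edgeR test, 0 of the 16 were called between KA and SH in neurons and 0 in glia, with 0 at an unadjusted p below 0.05 and 0 called by DESeq2 in either fraction. Their median logFC was 0.05 in neurons and 0.07 in glia. Anxa6, an abundant neuronal annexin, had means of 134 and 108 CPM in SH and KA neurons (logFC -0.31 ± 0.395) and 44.5 and 36.4 CPM in SH and KA glia (-0.29 ± 0.396). Anxa7, which takes part in vesicle fusion, had 71.3 and 51.0 CPM in neurons (-0.48 ± 0.325) and 35.5 and 39.8 CPM in glia (0.16 ± 0.325).

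S100b, the S100 protein typical of astrocytes, had 3.27, 4.51 and 5.10 CPM in SH neurons and 7.0, 6.07 and 5.91 CPM in KA neurons (logFC 0.56 ± 0.448, FDR = 1). In glia it had 26.7, 7.74 and 17.8 CPM in SH and 14.3, 7.84 and 8.15 CPM in KA (logFC -0.79 ± 0.444, FDR = 1). S100a1 had a logFC of -0.58 ± 0.615 in neurons and -0.80 ± 0.584 in glia, neither called. Between fractions, 2 of the 16 were higher in neurons in SH and in KA (Anxa6 and Anxa11), where 6.05% and 5.88% of all genes were. In glia 5 were higher in SH (S100a1, S100a3, S100a13, S100a16 and S100b) and 3 in KA (S100a1, S100a13 and S100a16), where 4.67% and 3.98% of all genes were. S100a16, picked out after its values were seen, had means of 6.25 CPM in SH neurons and 101.6 CPM in SH glia, the largest difference of these 7 genes in SH (logFC -4.02 ± 0.647 in SH, FDR = 0.000756).

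Of 28 partner genes, 3 were called higher in KA glia and none lower, where 0.442% of all genes were called higher and 0.306% lower, with 3 at an unadjusted p below 0.05 and the same 3 called by DESeq2. The values of 2 of them are given here. Plaur, the urokinase receptor, had 7.07, 7.59 and 1.88 CPM in SH glia and 25.2, 28.7 and 43.6 CPM in KA glia (logFC 2.57 ± 0.562, FDR = 0.101). Myof, a ferlin of membrane repair, had 7.96, 13.3 and 4.90 CPM in SH glia and 24.1, 19.5 and 28.9 CPM in KA glia (logFC 1.47 ± 0.389, FDR = 0.235). For both, every KA glia library lay above every SH one. Plaur lost its call without KA glia replicate 3 or SH glia replicate 3. The Myof call held in 1 of 6 fits without 1 library, the one without SH glia replicate 2, and none of the 3 was called without both low-input libraries.

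By group, 1 of 10 membrane repair genes was called higher in glia, and 0 of 6 receptors and 0 of 6 clients of S100a10 and Ahnak. With the replicate block, Hltf (logFC -0.74, FDR = 0.119) and Asic1 (logFC -0.66, FDR = 0.17) of the clients were also called, as lower. Of 37598 genes, that fit called 1566 lower in glia, where the fit without the block called 115. Plat, the tissue plasminogen activator that binds the complex, had 80.6, 157 and 92.3 CPM in SH glia and 180, 102 and 176 CPM in KA glia (logFC 0.47 ± 0.384, FDR = 1), which overlapped. In neurons Plat had a logFC of 0.22 ± 0.383. There, 0 of the 28 were called by edgeR and 0 by DESeq2, with 1 at an unadjusted p below 0.05. Between fractions, 3 of the 28 were higher in neurons in SH and in KA, the serotonin receptor gene Htr1b, the calcium channel subunit gene Cacnb2 and the protease gene Capn1. In glia 3 were higher in SH (Tlr4, Pdcd6ip and Cav1) and 4 in KA (these and Plaur). Of all genes, 6.05% in SH and 5.88% in KA were higher in neurons, and 4.67% and 3.98% in glia. Htr1b, whose receptor S100a10 carries to the surface, had means of 6.93 CPM in SH neurons and 0.592 CPM in SH glia (logFC 3.49 ± 0.844, FDR = 0.0116).

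**Figure D5:**
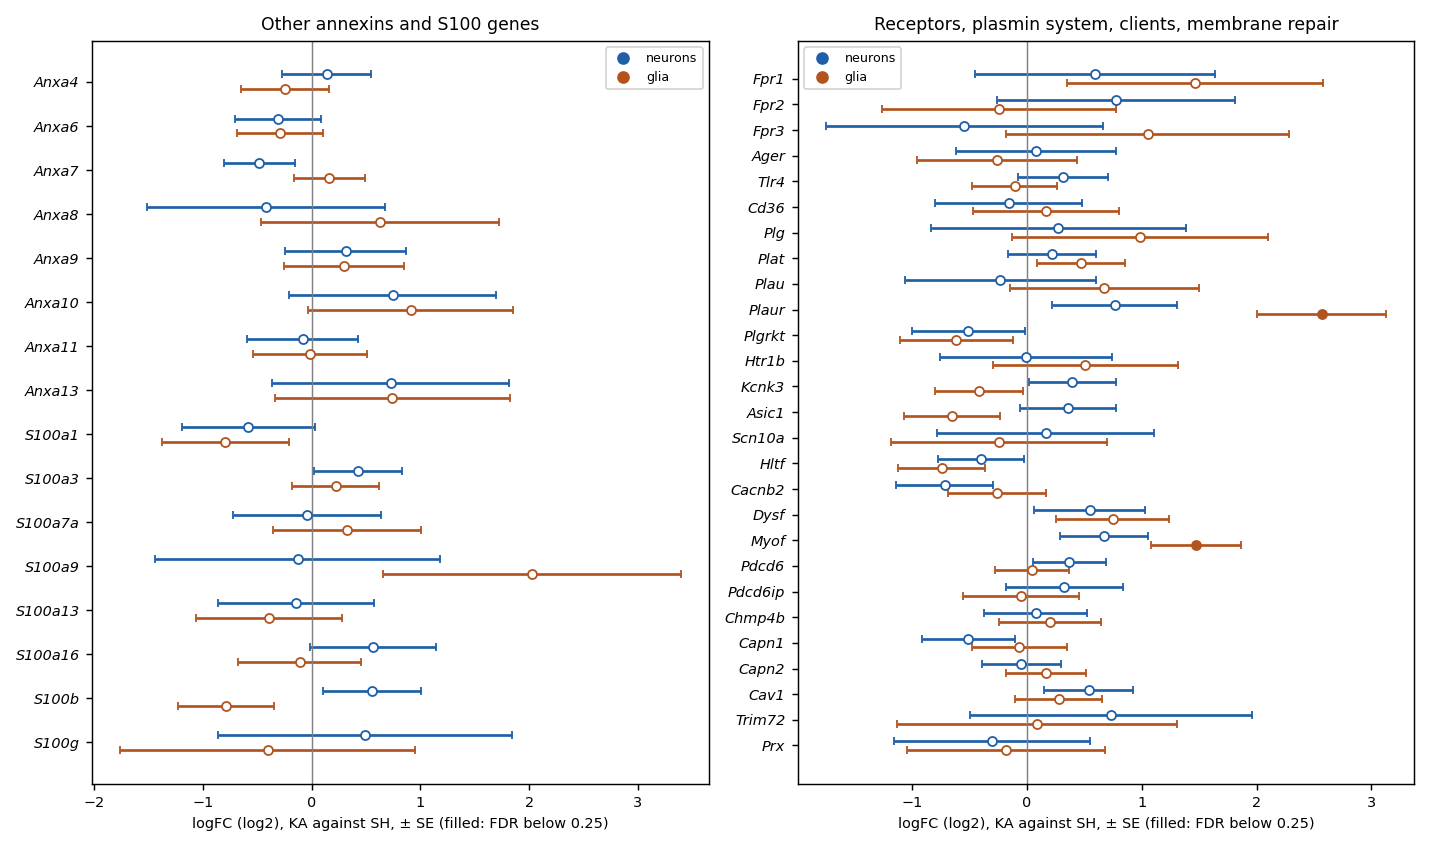
logFC of KA against SH in neurons and glia (log2 axis) for the 16 other annexins and S100 genes tested and for partner genes, with bars for the SE and filled points for FDR below 0.25, 3 libraries per group. Plaur and Myof in glia are the filled points.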

How the data were processed

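Nuclear poly(A) RNA of sorted nuclei was amplified from oligo(dT) with SMART-Seq v4 and made into libraries with ThruPlex, which does not mark strand. The deposited values are raw read counts per gene. Per the study's methods, the authors trimmed reads with Trim Galore 0.4.3, aligned them to mm10 with Rsubread and counted uniquely mapped reads with featureCounts on GENCODE M16, so reads shared by 2 genes were dropped. Methylation libraries were not used here.

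The 12 libraries, 3 per group, were fitted as 4 group means with edgeR 4.0.16 (quasi-likelihood test, legacy version, TMM scaling, filterByExpr with a minimum count of 10) in R 4.3.3, after leaving out 105 identifiers without a symbol. FDR is the Benjamini-Hochberg value over 37598 genes, and SE is the logFC divided by the root of F. Alternatives were DESeq2 1.42.0, other filters and scaling, a replicate block, other thresholds and leaving out libraries. Replicates were pools of separate mice, and depth ranged from 7769400 to 40364768 counts. Same-numbered libraries deviated together: r was 0.228 to 0.488 (KA and SH neurons), 0.466 to 0.720 (KA and SH glia), and 0.252 to 0.596 (neurons and glia of a pool, the same mice). Per the study's methods, libraries were sequenced on a NextSeq500 or a HiSeq3000. Which library ran on which instrument is not given in the sources used here, so instrument and replicate number were not told apart.

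The members and lists were chosen with earlier results of these data known. Besides the 10 genes, the text names S100b, S100a1, Anxa6, Anxa7 and Plat, up to 3 called genes per list and direction, and members of counts of 5 or fewer, these last after their values were seen. The values of 1 partner gene are not reported here.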

Additional observations from a re-analysis of the deposited data

How the results depend on the processing

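KA against SH chose the 10 genes, so the counts of them called there describe the choice. Of the 10 genes, 1 was called between KA and SH in neurons. That count was 2 with at least 10 counts in every library, with DESeq2, with the newer edgeR test or with separate fits of neurons and glia, 3 with the replicate block, 0 at FDR 0.05, and 0 to 1 without 1 library. In glia 3 were called, against 5 with the newer edgeR test, 5 with the replicate block, 1 without both low-input libraries, 1 at FDR 0.05, and 1 to 3 without 1 library. For genes called higher in glia than in neurons, the count of 2 in SH became 4 with at least 10 counts in every library, 4 with DESeq2, 1 with the newer edgeR test, 1 without both low-input libraries, 1 at FDR 0.01, and 1 to 3 without 1 library. In KA the count of 4 became 1 at FDR 0.01 and 1 to 4 without 1 library. The 3 partner genes called in glia became 5 with the replicate block, 0 without both low-input libraries, 0 at FDR 0.05, and 0 to 3 without 1 library. The replicate block changed no other call than those given with the results among the 10 genes, and none in KA against SH of S100b, S100a1, Anxa6, Anxa7, Plat, Plaur and Myof. It was not examined for the other named genes between neurons and glia. The causes were not tested.

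Values near 0 changed sign. For neurons against glia, S100a10 was -0.0323 in SH and -0.0318 in KA with DESeq2 size factors, -0.21 and -0.20 with at least 10 counts in every library, -0.0282 and -0.0292 with DESeq2, and -0.29 in KA without both low-input libraries. Ahnak in SH was -0.0637 with DESeq2 size factors, -0.0299 without a filter, -0.21 with at least 10 counts in every library, -0.0654 with DESeq2 and -0.19 without both low-input libraries, and S100a11 in SH was -0.27 with the replicate block. Anxa7 in glia, KA against SH, was -0.00762 without both low-input libraries. Without 1 library, values for neurons against glia ranged from -0.34 to 0.40 for Ahnak, -1.08 to 0.12 for Anxa1, -1.36 to 0.70 for S100a11 and -0.16 to 0.27 for S100a10 in SH, and -0.31 to 0.34 for S100a10 in KA. For KA against SH they ranged from -0.63 to 0.0372 for Anxa6 in glia, -0.51 to 0.0365 for Anxa6 in neurons, -0.00412 to 0.42 for Anxa7 in glia and -0.0308 to 0.38 for Plat in neurons.

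Over all genes, KA against SH called 105 higher and 23 lower in neurons and 166 and 115 in glia. DESeq2 called 292 and 140 in neurons and 364 and 602 in glia, the newer edgeR test 194 and 59, and 287 and 228, the filter of at least 10 counts 329 and 136, and 443 and 760, separate fits 409 and 247, and 129 and 17, and the replicate block 730 and 417, and 1305 and 1566. Without both low-input libraries the counts were 73 and 6 in neurons and 40 and 1 in glia. DESeq2 size factors moved the median logFC of all genes for neurons against glia from 0.0107 to -0.136 in SH, where 1624 genes were then higher in neurons and 1945 in glia, and from -0.238 to -0.392 in KA. S100a11 and S100a4, with 1 to 29 counts per library, are limited by depth.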
